A study of Mus musculus with 36 samples.

Results

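The right lungs collected 7 days after pneumonectomy (PNX) were compared between mice of 9 and 3 months of age, as levels of each transcript and not as ratios to another lung. The comparison holds 6 of the 36 arrays of the series, 3 for each age, chosen by their labels for lung, day and age alone. All mice were female C57BL6 mice, and all had lost the left lung by PNX. The 3 month and the 9 month group thus differ in age and share strain, sex, surgery and time after it. Each array carried RNA of a pool of 2 mice, and the 6 pools were of different mice, so a value below is 1 pool and n = 3 pools per age throughout. The study asked how the regrowth of the remaining lung differs with age. Its other 30 arrays hold the left lungs of all pools, taken at PNX, and the right lungs of days 1 and 3.

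After PNX the remaining lung of a rodent enlarges and adds new alveolar tissue, with division of epithelial, endothelial and mesenchymal cells and a rebuilding of the collagen and elastin scaffold. Macrophages enter the organ during this remodelling and release proteases and growth factors. Antibody transcripts in lung tissue come from B cells and plasma cells, whose immunoglobulin genes are joined from V, D and J segments, so that each clone carries its own V gene.

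On the 6 arrays the signal at the 75th percentile lay between 181 and 348, between 44.9% and 47.4% of probes were detected, and the correlation between arrays lay between 0.983 and 0.994. The median over probes of the SD between pools was 0.12 log2 units in the 3 month group and 0.14 in the 9 month group, against 0.15 to 0.21 in the right lung groups of days 1 and 3. The 6 arrays lay on the same chip, the 3 month pools in its upper and the 9 month pools in its lower positions, so age and place on the chip cannot be told apart. The tissue was lung by its markers: Sftpc, Sftpb, Scgb1a1, Ager and Pecam1 were detected on every array, and the difference between the ages lay between -0.10 and 0.07 for each of these 5. Skeletal muscle transcripts were measured in every pool, where the mean level of 5 genes ran from 11.65 to 13.00 at 3 months and from 11.56 to 12.53 at 9 months.

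Of 15795 probes tested, 29 differed between the ages by at least 1.5-fold at an adjusted p under 0.05, which is 0.184%. Of these 25 were higher and 4 were lower in the 9 month lungs. In all 29 the 3 pools of an age lay apart from the 3 of the other, as they did in 17% of all probes. The 12 largest called differences were all of immunoglobulin probes or of loci named only by number. The remaining named genes comprised immune genes (2010001M09Rik, H2-M2, Cd177, Lat, Serpina3g, Klra4), a macrophage gene (Gpnmb), secreted proteins (Agrp, Azgp1), an enzyme (Ltb4dh), a small nucleolar RNA (Snora70) and 3 further genes lower in 9 month lungs (Peg3, Bex2, Fzd2). The median difference over 11835 genes was 0.00 on the log2 scale, with quartiles of -0.10 and 0.11. At an unadjusted p under 0.05 stood 975 probes. The number of calls depended on the fit. It was 48 in a fit of the 6 arrays alone and 224 when each of the 18 right lung arrays was weighted by its quality, with 52.7% of calls higher in place of 86.2%. Replicate 2 of the 9 month group had a weight of 3.45, against 0.64 and 1.18 for the other pools of that age. Every call with array weights given below therefore leans on a single 9 month pool. Leaving out any single pool of the 6 left 2 to 9 calls, and of the called genes named below only Igh-VJ558 kept its call in every such fit. Igk-V5, H2-M2, Agrp, Lat, Gpnmb, Azgp1, Snora70, Ltb4dh, Klra4, Peg3, Bex2 and Fzd2 kept it in none of these fits.

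**Figure D1:**
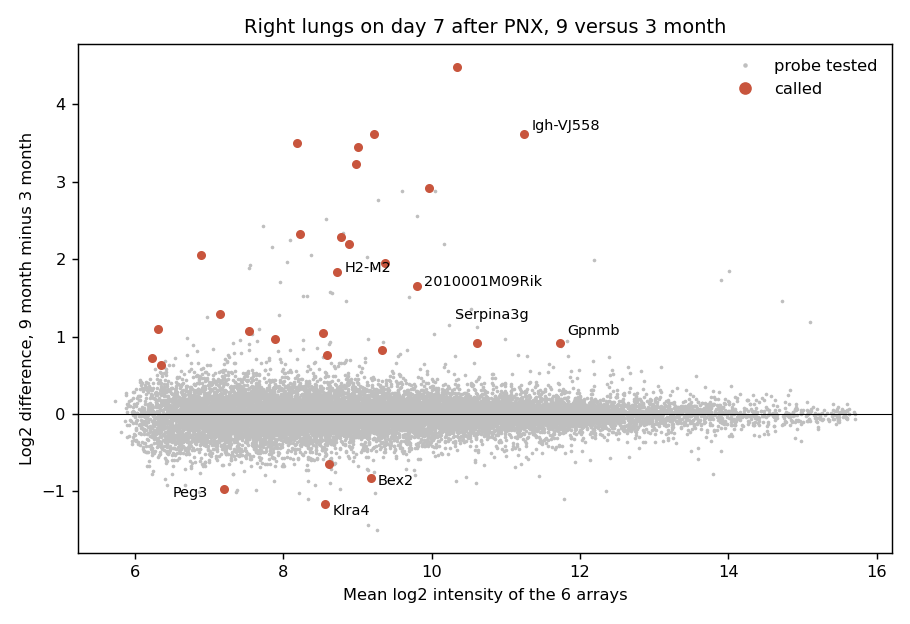
Log2 difference between the ages (9 month minus 3 month) against the mean log2 intensity of the 6 right lung arrays of day 7, with 1 point for each of 15795 probes. The 29 called probes are red, with 25 above and 4 below 0, and the differences above 2 are all positive.

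The variable region probe Igh-VJ558, for heavy chain V genes of the J558 family, gave the lowest adjusted p of all. Its log2 intensity was 9.10, 9.64 and 9.58 in the 3 month pools and 13.51, 12.19 and 13.46 in the 9 month pools. The 9 month lungs were higher by 3.62 ± 0.36 (SE), which is 12.3-fold, with an adjusted p of 1.6e-04. Another probe of the same name gave 3.61. Replicate 2 was the lowest of the 9 month pools and still lay far above every 3 month pool.

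Light chains followed. Igk-V5, a kappa V gene, measured 8.65, 8.58 and 8.28 in 3 month and 11.72, 11.34 and 11.22 in 9 month pools, a rise of 7.59-fold (log2 2.92 ± 0.52, adjusted p = 0.040). Igk-V33, another kappa V gene, measured 5.64, 6.05 and 5.89 against 8.21, 8.52 and 7.02 (2.06 ± 0.37, adjusted p = 0.040). The constant regions Igh-6 and Igk-C, shared by all clones of a class, were not called in right lungs of day 7. Both were called higher at 9 months in the left lungs of the same pools and of the other pools. They were also called higher in the right lungs of days 1 and 3. Igh-6, the constant region of IgM (Ighm in RefSeq), measured 13.57, 13.37 and 12.30 in 3 month and 15.12, 14.91 and 14.74 in 9 month pools, with an adjusted p of 0.17. The kappa constant region Igk-C differed by 1.18 ± 0.30 with an adjusted p of 0.20 and lay near the top of the intensity range, at 13.89 to 15.74. Replicate 3 of the 3 month group was the lowest pool for both constant regions.

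Of 27 probes with an immunoglobulin symbol, 11 passed the detection filter. All 11 had the 3 month pools below the 9 month pools, with differences of 1.18 to 3.62 and a median of 2.06, and 5 of them were called. Counted by genes, with 1 probe each, 24 of 11835 (0.203%) were called on day 7. Of the immunoglobulin list, 11 genes were on the array and 6 were measured, of which 2 were called. All 6 were higher at an unadjusted p under 0.05, as were 3.48% of all genes, and their median was 1.94. With array weights all 6 were called, against 1.39% of genes. V genes of a family are close in sequence, so a probe may read several of them. The 10 called probes named only by a LOC number differed by 0.82 to 4.48, all higher in 9 month lungs. LOC636752, higher by 11.3-fold (adjusted p = 0.012), is a kappa V gene in RefSeq. The other 8 LOC names had no match and are given no function here.

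Of 9 measured plasma cell genes only 2010001M09Rik was called. This gene, Mzb1 in RefSeq, encodes an endoplasmic reticulum protein of marginal zone B cells and plasma cells that helps to assemble IgM. It measured 8.96, 9.04 and 8.91 in 3 month and 10.81, 10.73 and 10.33 in 9 month lungs, higher by 1.65 ± 0.27 (3.14-fold, adjusted p = 0.019). Of the defining markers, Sdc1 differed by -0.07 ± 0.14, and Igj and Tnfrsf17 were detected on 1 and 4 of the 6 arrays. The median of the plasma cell list was 0.27, and its mean level was 10.00 to 10.12 in 3 month and 10.36 to 10.63 in 9 month pools.

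None of 12 measured B cell genes was called, although the difference was above 0 in all 12 and the ages did not overlap in 8, against 17% of all probes. Their median was 0.42, and 3 of the 12 had an unadjusted p under 0.05, against 3.48% of all genes on the higher side. Cd22, an inhibitory receptor of B cells, measured 8.08, 7.87 and 8.11 against 8.75, 8.56 and 8.60 (0.62 ± 0.20, adjusted p = 0.44). Cd72, another receptor of B cells, differed by 0.63 ± 0.22. In whole lung, more B cells and more RNA per B cell cannot be told apart, and this holds for every cell type below.

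The T and NK cell list, of which 14 genes were measured, had a median of 0.37 with 12 differences above 0 and none of its members called. Il7r, the interleukin 7 receptor of resting lymphocytes, measured 8.17, 8.14 and 8.24 in 3 month and 8.93, 8.51 and 8.86 in 9 month pools (0.58 ± 0.14, adjusted p = 0.17). Lat, the adaptor that couples the T cell receptor to its kinases and no member of that list, was called. It measured 7.37, 7.12 and 7.72 against 8.18, 8.39 and 8.55, a difference of 0.97 ± 0.18 (adjusted p = 0.040). Klra4, an activating Ly49 receptor of NK cells, moved the other way. It measured 8.82, 9.04 and 9.57 in 3 month and 7.83, 7.88 and 8.24 in 9 month lungs and fell by 1.16 ± 0.21 on the log2 scale, or 2.24-fold (adjusted p = 0.040).

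Genes of lymphoid tissue had a median of 0.38 over 11 measured members, 4 of them with an unadjusted p under 0.05 and none called. Cxcl13, the chemokine that draws B cells into follicles, measured 8.71, 7.82 and 7.79 in 3 month and 10.11, 9.60 and 9.01 in 9 month pools (1.46 ± 0.54, adjusted p = 0.61). Ccr6, a chemokine receptor of B cells and some T cells, differed by 0.81 ± 0.28, Ccl21b by 0.61 ± 0.25 and Cxcr5, the receptor of Cxcl13, by 0.48 ± 0.21. The ages did not overlap in any of these 4, which were the members with the smallest p. They did not overlap in 7 of the 11 members, against 17% of all probes. The class II antigen presentation list had a median of 0.26 over 11 genes, led by H2-DMb1, a subunit of the peptide exchange factor H2-M, at 0.57 ± 0.12 (adjusted p = 0.079).

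Genes of blood cells stood beside these differences. Platelet genes had a median difference of 0.66 over 9 measured members, with 1 at an unadjusted p under 0.05, none called and the ages overlapping in all. Their mean level was 9.01 to 9.53 in 3 month and 9.30 to 10.18 in 9 month pools. The erythroid list had a median of -0.03 and a mean level of 10.77 to 11.03 against 10.82 to 10.98. The part of blood in the immune differences was not tested.

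Of the other called immune genes, H2-M2, a nonclassical class I gene of the MHC, measured 8.12, 7.55 and 7.75 in 3 month and 9.80, 9.44 and 9.68 in 9 month pools. It was higher by 1.84 ± 0.29 (3.57-fold, adjusted p = 0.015). Cd177, a neutrophil surface protein, measured 7.94, 8.04 and 8.07 against 8.64, 9.35 and 9.19 (1.05 ± 0.15, adjusted p = 0.010). Serpina3g, an intracellular inhibitor of cathepsins that lymphocytes and myeloid cells induce on activation, measured 10.22, 10.19 and 10.04 against 11.17, 11.07 and 10.98 (0.92 ± 0.14, adjusted p = 0.012). In each of these 3 genes all 9 month pools lay above all 3 month pools. The ages lay apart in all 29 called probes and in 17% of all probes. Among 20 alternative settings, pools left out included, Cd177 and Serpina3g were called in 15 and H2-M2 in 13. Of the 6 fits with a pool left out, Cd177 kept its call in 3, Serpina3g in 2 and H2-M2 in none. The neutrophil list had a median of 0.21 over 9 genes, with none called, and S100a8 differed by -0.12. Ngp, another neutrophil marker, was detected on 4 of the 6 arrays and was therefore not tested. Ngp differed by -1.58, opposite in direction to Cd177, and the ages did not overlap. Of the interferon response list, 19 genes measured, none was called, 16 differences were above 0 and the median was 0.18, with Oas2 at 0.96 ± 0.27 and Cxcl9 at 1.10 ± 0.39.

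Called proteins of other kinds were Agrp, known as an appetite peptide of the hypothalamus, and Azgp1, a secreted zinc binding glycoprotein linked to lipid mobilisation. Agrp measured 7.18, 6.87 and 6.94 in 3 month and 7.86, 8.10 and 8.26 in 9 month lungs (1.07 ± 0.20, adjusted p = 0.040). Azgp1 measured 8.22, 8.39 and 8.03 against 8.80, 9.03 and 9.09 (0.76 ± 0.14, adjusted p = 0.042). A dimmer probe of Azgp1 differed by 0.28 (adjusted p = 0.94), and the Azgp1 call was made in 9 of 20 other settings. Agrp and Azgp1 were low to moderate in signal. Detection on all 36 arrays was required of every probe tested. Ltb4dh, Ptgr1 in RefSeq, an enzyme that inactivates leukotriene B4 and prostaglandins, was higher by 0.63 ± 0.12 (adjusted p = 0.040), and the small nucleolar RNA Snora70 by 0.73 ± 0.14 (adjusted p = 0.044). Both were dim, at 5.92 to 6.73 and 5.77 to 6.67, and Snora70 was called in 6 of 19 other settings. On the authors' log2 values Ltb4dh differed by 0.25 (adjusted p = 0.36).

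**Figure D2:**
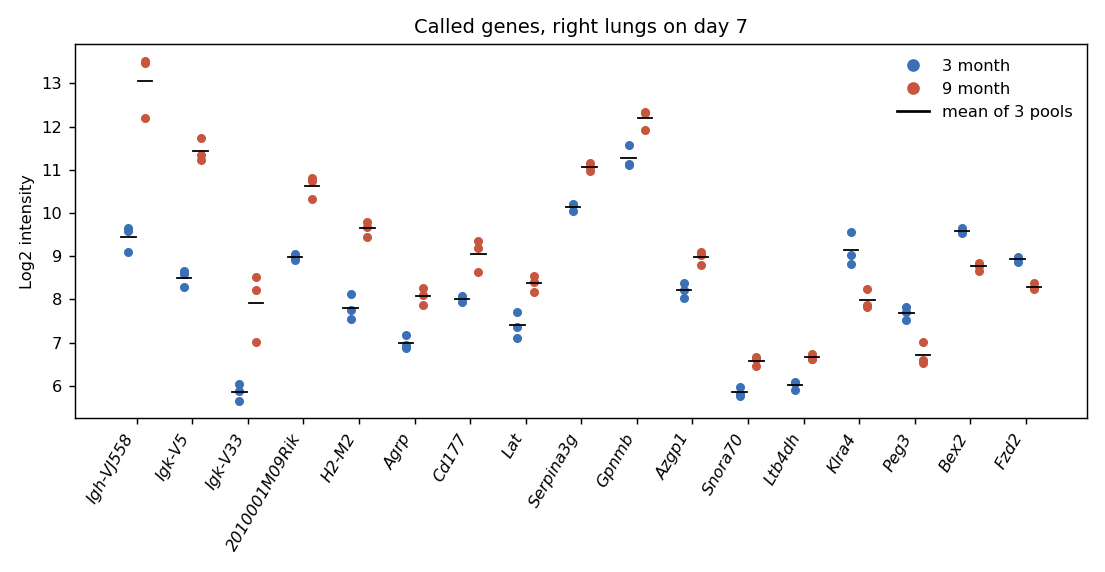
Log2 intensity of 17 called genes in each pool of the right lungs of day 7, with 3 month pools in blue, 9 month pools in red and black lines at the mean of 3 pools. In each gene the pools of an age lie apart, with the widest difference of means in Igh-VJ558, and 4 genes at the right (Klra4, Peg3, Bex2, Fzd2) are lower in 9 month lungs.

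Gpnmb, a transmembrane glycoprotein of lipid-laden macrophages that stood in none of the lists, was called. None of the 11 alveolar, 19 monocyte and interstitial and 11 repair macrophage genes measured was called, and the genes set beside Gpnmb here were taken from several lists for their values. It measured 11.57, 11.13 and 11.11 in 3 month and 11.91, 12.34 and 12.32 in 9 month right lungs (0.92 ± 0.17, 1.89-fold, adjusted p = 0.042). In the left lungs of the same pools, taken at PNX, it measured 10.53, 10.78 and 10.86 against 10.68, 10.99 and 10.69, a difference of 0.07 ± 0.14. The ages overlapped before PNX and lay apart 7 days after it, and the call on day 7 was made in 9 of 20 other settings.

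Ctsk, a collagen-degrading cathepsin, measured 11.60, 11.02 and 11.43 in 3 month and 12.26, 12.29 and 12.34 in 9 month right lungs. It differed by 0.94 ± 0.19 and missed the threshold with an adjusted p of 0.052, which was 0.0031 with array weights. In left lungs it differed by 0.21 ± 0.15. Arg1, the arginase of alternatively activated macrophages, measured 10.49, 9.61 and 9.44 against 11.05, 10.62 and 11.95 (1.36 ± 0.45, adjusted p = 0.49) and differed by -0.13 in left lungs. Mmp13, an interstitial collagenase, measured 7.28, 6.96 and 6.91 against 8.62, 7.15 and 8.49, with overlap of the ages through replicate 2 of the 9 month group. Cd68, a lysosomal protein of all macrophages, differed by 0.56 ± 0.17, Spp1 (osteopontin) by 0.73 ± 0.22 and the eosinophil attractant Ccl11 by 0.79 ± 0.16 (adjusted p = 0.064).

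The difference of these differences was tested on the ratio of right to left lung in each pool. It was 0.70 ± 0.15 for Cd68, 0.85 ± 0.21 for Gpnmb, 0.74 ± 0.22 for Ctsk, 0.94 ± 0.29 for Mmp13, 0.77 ± 0.26 for Ccl11 and 1.49 ± 0.49 for Arg1. For the immune genes Igh-VJ558, 2010001M09Rik and Igh-6 it was 0.64 ± 0.36, 0.84 ± 0.35 and -0.59 ± 0.51. All of these genes were chosen by their values in the right lungs of day 7, which the ratio holds too. That choice alone can raise these values, so no change after PNX is read from them. None passed adjustment over all probes, where 0 of 15795 (0%) were called, the smallest adjusted p in limma was 0.9998 and 563 probes had an unadjusted p under 0.05. Lists of macrophage markers were read beside Gpnmb and the genes set with it. Of 11 measured alveolar macrophage genes the median was 0.00, with Ctsk the sole member at an unadjusted p under 0.05 and the marker Marco at 0.31 ± 0.24. The monocyte and interstitial macrophage list had a median of 0.19 over 19 genes and a mean level that ran from 10.93 to 11.04 in the 3 month pools and from 11.07 to 11.15 in the 9 month pools. The repair macrophage list, which holds Arg1, had a median of 0.10 over 11 genes with 3 differences below 0. Among the latter Mgl2, a lectin of alternatively activated macrophages, differed by -0.39 ± 0.24 and was called lower with array weights. The inflammatory list had a median of 0.50 over 12 genes, of which 11 had all 9 month pools above all 3 month pools, against 17% of all probes apart in either direction, and 5 had an unadjusted p under 0.05, against 3.48% of all genes on the higher side, Ccl4 at 0.91 ± 0.37, Ccl9 at 0.68 ± 0.26 and Saa3 at 0.55 ± 0.23 among them.

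**Figure D3:**
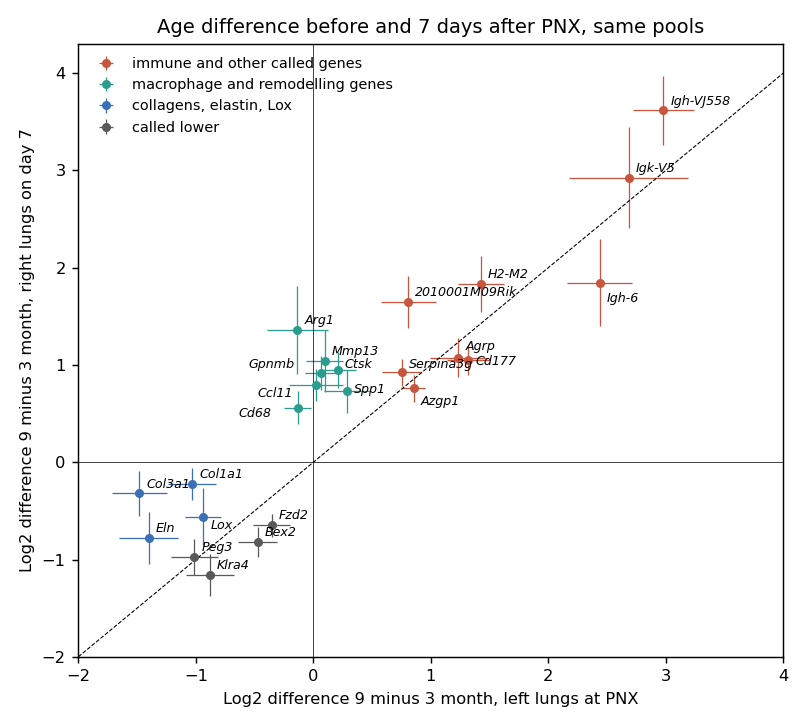
Log2 difference between the ages in right lungs of day 7 (vertical) against that in the left lungs of the same pools at PNX (horizontal), with standard errors of the fits and a dashed line of equality. Igh-VJ558 (2.98 in left and 3.62 in right lungs) and 2010001M09Rik (0.81 and 1.65) lie above the line and Igh-6 (2.44 and 1.84) below it. Macrophage genes such as Gpnmb (0.07 in left and 0.92 in right lungs) lie above the line near 0 on the horizontal axis. They were chosen by their right lung values. Col1a1 and Col3a1 lie above the line at the left.

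Promoter windows of Gpnmb, Cd68 and Mmp13 are shown because all 3 held the AP-1 motif TGANTCA, in capitals, and that of the called gene Serpina3g because it held the STAT motif (GAS) TTCNNNGAA, in capitals. Each runs from 250 bases before to 50 bases after the RefSeq start in GRCm38.p6, 5′ to 3′ on the strand of the gene. The motifs were 2 of 4 searched on both strands, with the E-box CACGTG and the octamer ATGCAAAT of immunoglobulin promoters, over 14 of 32 called or macrophage genes that had a window. V genes had none.
Gpnmb, chr6:49036268-49036567 (+ strand): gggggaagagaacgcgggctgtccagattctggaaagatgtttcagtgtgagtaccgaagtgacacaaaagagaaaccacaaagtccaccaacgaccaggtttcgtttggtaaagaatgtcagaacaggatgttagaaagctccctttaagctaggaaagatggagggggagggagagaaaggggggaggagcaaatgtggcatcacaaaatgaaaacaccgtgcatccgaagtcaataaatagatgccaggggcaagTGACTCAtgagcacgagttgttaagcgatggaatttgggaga
Cd68, chr11:69666121-69666420 (- strand): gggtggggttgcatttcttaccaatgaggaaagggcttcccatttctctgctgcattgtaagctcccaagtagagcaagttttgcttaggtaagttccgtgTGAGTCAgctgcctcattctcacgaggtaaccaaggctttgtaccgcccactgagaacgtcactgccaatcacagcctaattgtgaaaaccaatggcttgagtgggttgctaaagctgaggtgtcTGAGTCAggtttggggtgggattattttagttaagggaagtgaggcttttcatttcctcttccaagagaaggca
Mmp13, chr9:7272264-7272563 (+ strand): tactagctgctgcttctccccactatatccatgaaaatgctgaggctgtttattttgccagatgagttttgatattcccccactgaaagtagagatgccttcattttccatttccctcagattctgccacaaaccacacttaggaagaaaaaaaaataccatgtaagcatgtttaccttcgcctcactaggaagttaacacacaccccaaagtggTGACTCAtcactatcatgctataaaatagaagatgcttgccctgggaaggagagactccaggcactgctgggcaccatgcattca
Serpina3g, chr12:104235897-104236196 (+ strand): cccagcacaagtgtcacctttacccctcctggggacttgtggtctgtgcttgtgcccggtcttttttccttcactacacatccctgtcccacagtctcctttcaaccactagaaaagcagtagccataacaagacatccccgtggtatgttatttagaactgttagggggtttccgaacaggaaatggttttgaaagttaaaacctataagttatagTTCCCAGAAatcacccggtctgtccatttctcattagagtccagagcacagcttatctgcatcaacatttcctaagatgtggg
The AP-1 motif began at -35 in Mmp13, at -149 and -24 in Cd68 and at 9 in Gpnmb, past its start. It stood in 7.81% of 32851 promoter windows, and the GAS motif, at -33 in Serpina3g, in 8.3%. Of the 14 windows searched, no other held the AP-1 motif. H2-M2, Cd177, Azgp1, Ltb4dh, Bex2, Peg3, Klra4, Ctsk and Spp1 held none of the 4 motifs in this window, and Lat held an E-box. A match of letters says nothing about binding in these lungs.

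None of the matrix and fibroblast genes was called in 9 month right lungs. Differences lay below 0 for 9 of 12 measured interstitial collagen genes (median -0.20), 16 of 20 basement membrane genes (median -0.24) and 17 of 19 fibroblast genes (median -0.21). At an unadjusted p under 0.05 stood 3, 4 and 6 of them on the lower side, where 2.87% of all genes stood. The matrix protease and inhibitor list had 10 of 20 differences above and 10 below 0, with a median of -0.01, and Spp1 of the matricellular list was called higher with array weights. Elastin (Eln) measured 14.23, 14.35 and 13.97 in 3 month and 13.23, 13.73 and 13.27 in 9 month lungs (-0.78 ± 0.27, adjusted p = 0.53). The collagen VI chains Col6a1, Col6a2 and Col6a3 differed by -0.35, -0.41 and -0.48, and the microfibril protein Mfap5 by -0.58 ± 0.15. Of 16 smooth muscle and pericyte genes 15 had a difference below 0, with a median of -0.24 and no call. Scube2 differed by -0.92 ± 0.28 and Tcf21, a transcription factor of lung fibroblasts, by -0.54 ± 0.25, and both were called with array weights.

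Fibrillar collagens were called lower in the 9 month left lungs taken at PNX. Col3a1 measured 10.93, 10.03 and 9.78 in 3 month and 8.70, 8.74 and 8.85 in 9 month left lungs (-1.48 ± 0.23, adjusted p = 0.0026). In the right lungs of day 7 it measured 12.25, 12.23 and 11.74 against 11.52, 11.83 and 11.91, a difference of -0.32 ± 0.23. Col1a1 differed by -1.03 ± 0.20 in left lungs (adjusted p = 0.015) and by -0.23 ± 0.17 in right lungs. The right minus left difference of these age differences was 1.16 ± 0.30 for Col3a1 and 0.80 ± 0.29 for Col1a1, and neither passed adjustment. Eln and the crosslinking enzyme Lox, with differences of -1.40 and -0.94 in left lungs, stood at -0.78 and -0.56 on day 7.

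Growth factors and their receptors had a median of -0.06 over 25 measured members, with 5 lower and 1 higher at an unadjusted p under 0.05. Midkine (Mdk), a heparin binding growth factor of development and repair, measured 11.17, 11.01 and 10.93 in 3 month and 10.22, 10.65 and 10.26 in 9 month lungs (-0.66 ± 0.16, adjusted p = 0.18). The mesenchymal factors Fgf7 and Fgf10, which act on epithelium, differed by -0.46 ± 0.15 and -0.38 ± 0.14, and Igfbp2, which binds insulin-like growth factors, by 0.46 ± 0.16. Of the 18 measured genes that the study names, Mdk, Eln and Adamts9 had an unadjusted p under 0.05 and none was called. The study reported Eln and Adamts9 from the same samples, so they are no independent evidence. Mdk it reported from quantitative PCR of cultured lung fibroblasts, where it was lower at 9 than at 3 months. Other genes that it names also come from those cultures, a measure unlike whole lung.

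Among the called lower genes, Fzd2, a Wnt receptor, measured 8.99, 8.96 and 8.87 in 3 month and 8.24, 8.38 and 8.26 in 9 month lungs and fell by 0.65 ± 0.12 on the log2 scale (adjusted p = 0.040). Peg3, a paternally expressed imprinted gene active in growing tissue, measured 7.83, 7.52 and 7.72 against 6.53, 7.02 and 6.60 (-0.97 ± 0.19, adjusted p = 0.044). Bex2, an X-linked gene, measured 9.56, 9.66 and 9.54 against 8.85, 8.66 and 8.78 (-0.82 ± 0.15, adjusted p = 0.040), while its brightest probe differed by -0.41 and was not called. Peg3 was called in 7 of 20 other settings. Of 8 measured imprinted growth genes 6 had a difference below 0, with a median of -0.26, Cdkn1c at -0.39 ± 0.13 and Ndn at -0.31 ± 0.14 among them.

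Cell division genes did not differ detectably on day 7. Of 15 mitosis genes none had an unadjusted p under 0.05 and the median was -0.03. Mki67, the marker of cycling cells, measured 10.30, 10.28 and 10.42 in 3 month and 10.63, 9.98 and 9.78 in 9 month pools (-0.21 ± 0.20). The 9 month pools lay on both sides of the 3 month pools. The 22 DNA replication genes had a median of 0.06, again with none at an unadjusted p under 0.05. The median of the mitosis list was -0.77 in right lungs of day 1 and 0.20 on day 3.

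No gene of the epithelial, endothelial and mesothelial lists was called. The medians were -0.08 for 16 alveolar type II genes, -0.06 for 13 type I genes, -0.02 for 13 club and secretory genes, -0.03 for 21 endothelial genes and -0.02 for 8 mesothelial genes. Lamp3, a protein of lamellar bodies, differed by -0.80 ± 0.38 among type II genes and Ednrb, an endothelin receptor, by -0.63 ± 0.16 among endothelial genes. Both were called with array weights. Ciliated cell genes had a median of 0.25 over 21 members with 18 differences above 0 and none called, led by Rsph1 of the radial spoke at 0.47 ± 0.14.

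**Figure D4:**
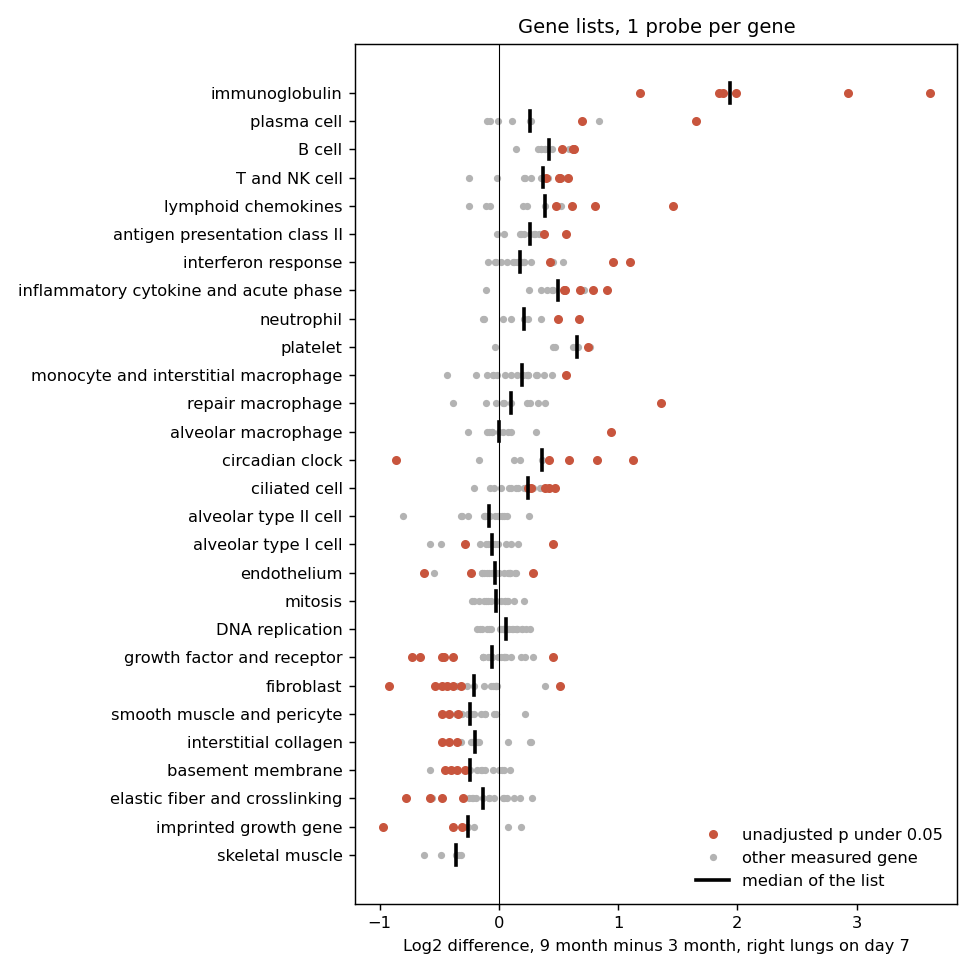
Log2 differences (9 month minus 3 month, right lungs of day 7) of the measured members of 28 gene lists, with 1 probe for each gene, red where the unadjusted p is under 0.05, and a black bar at the median of the list. The immunoglobulin list stands far to the right with a median of 1.94, the lists of B cells, T and NK cells, lymphoid chemokines, platelets and clock genes have medians of 0.37 to 0.66, and those of collagens, basement membrane and fibroblasts lie between -0.24 and -0.20.

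None of 9 measured clock genes was called, with 4 above and 1 below 0 at an unadjusted p under 0.05. Dbp, an output of the clock, measured 10.01, 9.84 and 10.27 in 3 month and 11.64, 10.83 and 11.04 in 9 month pools (1.13 ± 0.36, adjusted p = 0.45). The repressor Nr1d1 differed by 0.82 ± 0.26, Nr1d2 by 0.59 ± 0.25 and Per1 by -0.86 ± 0.26, with 10.95, 10.53 and 10.79 against 9.76, 9.89 and 10.03. The ages did not overlap in these 4 genes, which were chosen by their values. Of the 9 clock genes 5 lay apart on the higher and 1 on the lower side, against 17% of all probes in either direction. With array weights Dbp, Nr1d1 and Per1 were called. In the left lungs of the 3 month pools Dbp ran from 9.28 to 13.03, a wider range than the age difference. Hour of tissue collection was not given in the sources used here, and its part was not tested.

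Most called differences were present in other mice too. Of the 29 probes 22 (75.9%) were called in the same direction in the left lungs of the day 1 and day 3 pools, 12 pools of other mice before PNX, where 1.72% of probes were called. These 22 are 8.12% of the calls there. In right lungs of day 1, again other mice, 23 of the 29 (79.3%, and 4.76% of the calls there) were called alike, against 3.06% of all probes, and on day 3 it was 18 (62.1%, and 7.14%) against 1.6%. In the left lungs of the day 7 pools themselves 18 were called alike, against 1.07% of all probes. Not called in the left lungs of the other mice were Igk-V33, Lat, Gpnmb, Snora70, Ltb4dh, Fzd2 and LOC100048845, of which Snora70 and Ltb4dh differed there by 0.00 and -0.23. Of the 271 probes called in those left lungs, 258 had the same direction in right lungs of day 7. Their median was 0.90 in left and 0.54 in right lungs for the higher ones and -0.71 and -0.43 for the lower ones. The 271 were chosen by their values in those left lungs, which widens the left medians alone, so no change after PNX is read from them.

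The age difference of day 7 was tested against that of the earlier days. Against day 1, 3 probes (0.019%) were called: Ltb4dh, higher in 9 month lungs by 0.63 on day 7 and at -0.51 on day 1, and both probes of Cd93, an endothelial and myeloid receptor, at -0.14 and -0.15 on day 7 and 0.90 and 0.78 on day 1. With a single pool left out the number of calls lay between 0 and 3. It was 0 without replicate 2 or 3 of either age, and of 3 calls without replicate 1 of the 3 month group 1 was among those named here. On the authors' log2 values both probes of Cd93 were called and Ltb4dh was not. Against day 3, Cdh16 alone was called (0.00633%), a cadherin known from kidney epithelium, at -0.13 on day 7 and -1.70 on day 3. The B cell list stood at a median of 0.42 on day 7, -0.37 on day 1 and -0.67 on day 3, and the immunoglobulin list at 1.94, 1.70 and 1.89.

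**Figure D5:**
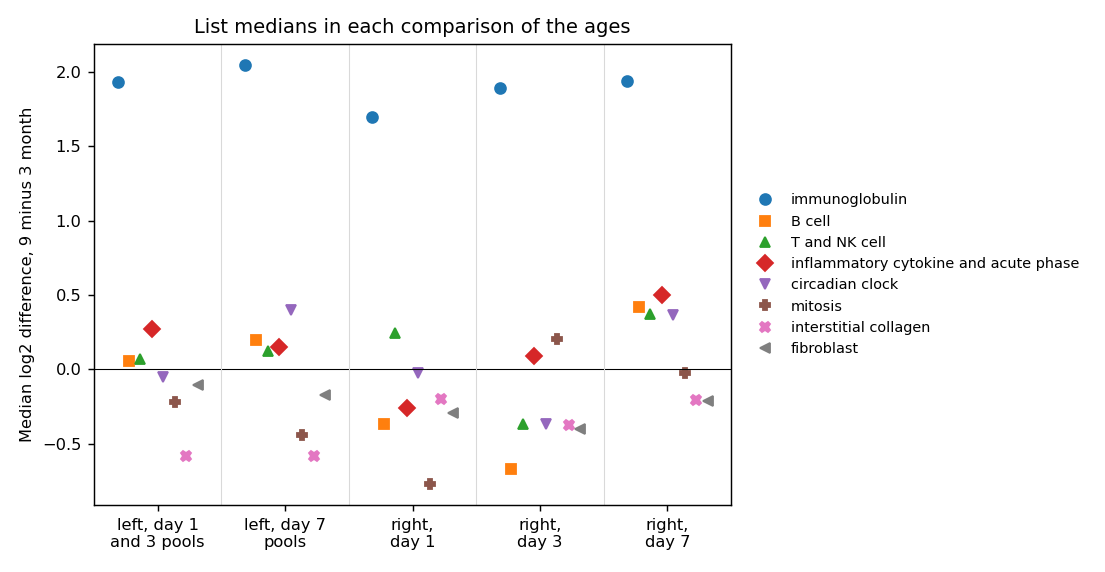
Median log2 difference between the ages (9 month minus 3 month) of 8 gene lists in the left lungs of the day 1 and 3 pools, the left lungs of the day 7 pools and the right lungs of days 1, 3 and 7. The immunoglobulin list lies between 1.70 and 2.04 in all 5, the mitosis list moves from -0.77 on day 1 to -0.03 on day 7, and the B cell list is highest on day 7.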

How the data were processed

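RNA of the 6 right lung arrays of day 7 was read on Illumina MouseWG-6 v2 BeadChips with 45281 probes. The authors deposited the mean bead intensity of each probe, not normalized between arrays but with values below 0 that show a subtracted background, and a detection p-value for each. They also deposited log2 values, background corrected by RMA and quantile normalized in lumi, used here as an alternative. Their notes name RMA, lumi and limma, and the genome build is not given in the sources used here. The columns of bead number and bead standard error, 72 in all, were not used, nor were the authors' own comparisons.

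The intensities were background corrected by normexp (limma 3.58.1 in R 4.3.3, offset 16) and quantile normalized over the 36 arrays, and probes stayed in where every array had a detection p under 0.05. The 18 right lung arrays were fitted in limma as 6 groups of age and day, so that the pools of days 1 and 3 helped to estimate the spread. Adjustment was by Benjamini-Hochberg over the kept probes, and a probe was called at an adjusted p under 0.05 with at least 1.5-fold. Left lungs had a fit of their own, and the right to left ratios by pool another. A value given with ± is an estimate with its SE from these fits. The fit of the day 7 comparison was tested on simulated data in which all arrays had the same spread for a given probe. That test therefore does not cover arrays of unequal quality. For array intensities the number of arrays limits the precision.

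Each gene of the 44 lists had 1 probe, that with the highest mean in right lungs. Lists were counted, not tested as sets. Members, lists and tests were chosen with earlier results of these data known. Named were the 12 called genes per direction with the largest difference and no overlap (unnamed loci and clones left out), up to 4 per list by p, those the study names, and up to 5 per test against other days or the left lungs. Other genes, among them Igk-C, Nr1d2, Tcf21 and the LOC names, were chosen after their values were seen or are markers of a cell type. RefSeq (GRCm38.p6) matched 16 of the 26 symbols of called probes. Alternatives were other background corrections, normalizations, filters, samples and spread estimates, array weights, a replicate block and each pool left out.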

Additional observations from a re-analysis of the deposited data

Results flagged for a closer look

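The age difference on day 7 differed from that of an earlier day in 3 genes, by a test of the difference itself. For Ltb4dh it was higher on day 7 than on day 1 by 1.15 (adjusted p = 0.040), a call that was not made on the authors' log2 values. For Cd93 the day 7 minus day 1 value was -1.04 and -0.93 in its 2 probes (adjusted p = 0.043 for both). In the brighter of them the 9 month pools stood at 14.49, 14.53 and 14.50 on day 1 and 13.56, 13.24 and 13.22 on day 7. For Cdh16 it was higher on day 7 than on day 3 by 1.57 (adjusted p = 0.0039), with 9 month pools at 7.76, 8.02 and 7.71 on day 3 and 9.71, 9.88 and 9.91 on day 7. The right lungs of each day lay on a chip of their own, so day and chip cannot be told apart.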

How the results depend on the processing

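None of the 17 called genes named changed direction under any of 14 alternatives or with a pool left out, and Igh-VJ558 passed both thresholds in all of them. The 29 calls became 18 with no background correction, 69 with detection on at least 3 of the 6 arrays, 47 with no detection filter, 48 with the 6 arrays alone and 224 with array weights, and lay between 21 and 42 in the other alternatives apart from the block. Array weights ran from 0.64 to 3.45 on day 7 and from 0.32 to 4.00 on day 3. The highest weight of each of these days was that of replicate 2 of the 9 month group. Its fellow 9 month pools had 0.64 and 1.18 on day 7 and 0.34 and 0.32 on day 3. With a single pool left out, between 2 (without replicate 3 of the 3 month group) and 9 probes (without replicate 3 of the 9 month group) were called. The replicate block left 2 calls. Replicate numbers do not pair the pools, which are of different mice, and the correlations between deviations of same-numbered pools were -0.17, 0.03 and -0.22. With a pool left out, calls of the age difference lay between 0 and 3 against day 1, between 1 and 2 against day 3 and between 0 and 2 against left lungs, the 2 arising without replicate 2 of the 9 month group. The authors' log2 values gave 104 in place of 169 calls in left lungs of the day 7 pools and 136 in place of 271 in those of the other days. The methods' t-test on the ratios gave 0 after adjustment and 750 probes before. Probes of V genes may read several family members, and dim probes such as Snora70 lie near the detection limit.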
